A study of Saccharomyces cerevisiae with 36 samples.

Results

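The combined coiled-coil pool was an all-by-all yeast 2-hybrid experiment on 137 proteins, read by sequencing before and after selection for growth without histidine. Its 8 libraries, of 36 in the series, were chosen as those of library sets L71 and L72, whose titles list NICP and the series An/Bn, P, N and PA besides mALB (T) and mALb (R). Each table holds the reads of every ordered protein pair, 18769 in all, and 15285 pairs with at least 10 reads before selection in each biological replicate form the set described here. Of these, 121 hold 1028_BW8_2Hx1_B, a protein absent from 2 of the 8 tables, and were left out of the tests, so 15164 pairs were tested.

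The selected group, His-, was grown without tryptophan and histidine and with 3-AT, at 1 mM in the sample descriptions, whereas the growth protocol shared by all samples of the series gives 3 mM. The unselected group, His+, comes from the outgrowth in medium lacking tryptophan alone. The sample annotation nevertheless lists 1 mM 3-AT for these unselected libraries too. Each group has 2 biological replicates (L71 is replicate 1 and L72 replicate 2) with 2 technical runs each, which were summed. All libraries share 1 yeast genotype, a MATa strain with AGA1::GAL1-AGA1::URA3 and the markers ura3-52 and trp1. Its other alleles are leu2-delta200 together with his3-delta and, at a further site, pep4::BleoMX, then prbd1.6R and can1 besides GAL. The strain's only HIS3 is the selection reporter leu2::pGAL6z-HIS3, which the unselected cells carry too. A pair is given with its row protein named before its column protein, because the sources used here do not say which axis of the tables is the DNA-binding fusion. The meaning of the letters T and R is not given there either.

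In a yeast 2-hybrid assay one protein is fused to a DNA-binding domain and the other to an activation domain, and their interaction brings a transcription activator to a reporter gene. Here the reporter is HIS3, an enzyme of histidine synthesis that 3-AT inhibits competitively, so that a cell needs more HIS3 to grow where more 3-AT is present. Coiled coils are bundles of helices whose contacts follow a repeated pattern of hydrophobic and charged residues, which makes their pairing a common test of designed specificity. PUMA is a BH3-only protein whose BH3 helix docks into a groove of MCL1, an anti-apoptotic member of the Bcl-2 family.

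A pair is identified by the barcodes of its proteins, and those of 8 proteins on which the results below turn are shown 5′ to 3′ as the deposited barcode map gives them. Each of the 137 proteins had 1 barcode of 20 bases, all 137 were distinct, and the closest 2 differed at 7 positions (AN3 and 1024_BW11_2H_A). The map lists 154 names, of which 17 are not in the tables. The first 4 belong to peptides, the next 2 to chains of larger designs, and the last 2 to MCL1 and a PUMA variant that fell with it in both orientations.
Jerala_P9: cgtcgccacctcctttaggc
Jerala_P10: ccagagcgcaggaccgctct
N1: cgtacgatcatgaacctttc
N2: agacttcgacaatattccgc
mALb8_cutT1_B: catcgatctgtaatgcagcg
1027_BW5_2Hx12j_A: tgcaagcacttcccactctg
MCL1: caatagacctgtcgtatgtc
PUMA_M144A_L141A: aagcgcaacacagaaggtaa

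Selection concentrated the reads on few pairs. The His- libraries held 16479810 and 17791146 reads in replicates 1 and 2, and the His+ libraries 22515090 and 14428752. In His- cells 376 and 385 pairs held 50% of all reads, against 3901 and 3990 pairs in His+ cells. The 100 most abundant pairs of each library held 25.1% and 25.4% of reads in His- cells and 2.98% in both His+ libraries. The median tested pair had 157 and 218 reads in His- cells, against 1312 and 855 in His+ cells. Of the tested pairs, 455 and 338 had no read in His- cells, and none was without reads in His+ cells by the choice of pairs.

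**Figure D1:**
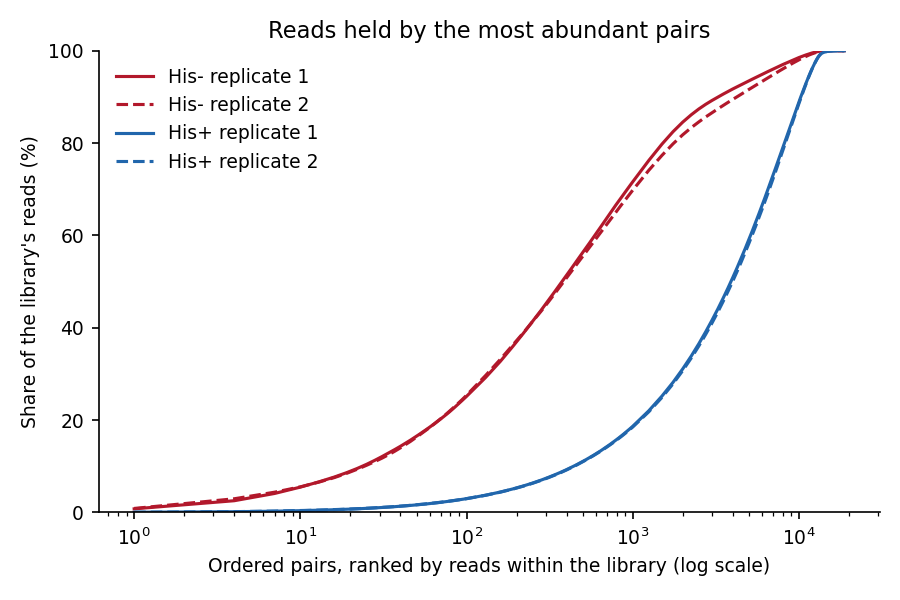
Share of each library's reads (vertical axis, percent) held by its most abundant ordered pairs (horizontal axis, log scale, pairs ranked within the library). The curves of both His- replicates lie above those of both His+ replicates, with 50% of reads reached at 376 and 385 pairs in His- cells and at 3901 and 3990 pairs in His+ cells.

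Intended pairs are those whose names make them partners: the A chain of a design with its own B chain, peptides of 1 series numbered in sequence from an odd number (1 with 2, 3 with 4 and so on), and AN with BN peptides of any number, each in both orientations. They held 8.45% and 7.73% of reads in His- cells and 0.98% in both His+ libraries. Pairs of a PUMA variant with MCL1 held 4.66% and 4.82% in His- cells, against 0.146% and 0.14% in His+ cells. Homodimers, a protein with itself, held 0.098% and 0.124% in His- cells and 0.128% and 0.123% in His+ cells. The widest Wilson 95% interval of these and the remaining share was 0.016 percentage points to each side. Reads are PCR products without molecular identifiers, so intervals cover counting error only.

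The change of a pair is the log2 ratio of its share of reads in His- cells to its share in His+ cells, so that 0 is an unchanged share. Over all tested pairs its median was -2.62 and -2.28 in replicates 1 and 2. In edgeR's quasi-likelihood test with library totals as library sizes, 513 of 15164 pairs rose (3.38%) and 8932 fell (58.9%) at an adjusted p under 0.05. With TMM factors, which centre the bulk of pairs, the fitted median of all pairs was 0.05 in place of -2.28. Then 156 pairs rose (1.03%), 152 of them among the 513, and 0 fell (1521 at an unadjusted p under 0.05). With DESeq2, whose size factors also centre the bulk (median 0.07), 1989 pairs rose (13.1%) and 372 fell (2.45%). A fall in the text is therefore a loss of share against the whole library, and most of the 8932 falls were not called against the bulk of pairs. With the library set as a block, which pairs the libraries of equal replicate number, 320 pairs rose (2.11%) and 8497 fell (56.0%). Without the His+ library of replicate 1 or of replicate 2, 0 pairs rose and 0 fell. Without the His- library of replicate 1 there were 1615 pairs that rose, and 1652 without that of replicate 2. Among intended pairs, 52 of 114 rose (45.6%), 35 fell (30.7%, against 58.9% of all tested pairs) and 27 did neither; with TMM factors 27 rose. Without either His+ library 0 intended pairs rose, and without the His- library of replicate 1 or 2 there were 58 or 65.

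Changes of intended pairs correlated more closely between replicates than those of other heterodimers. A correlation also depends on how widely the values spread, which was not matched between these kinds of pair. Levels of the 15164 pairs correlated with r = 0.74 between the His- replicates and 0.957 between the His+ replicates, and technical runs of 1 library with 0.987 to 0.994. Changes in replicate 1 correlated with those in replicate 2 with r = 0.903 over 114 intended pairs, 0.637 over 26 PUMA pairs with MCL1 and 0.468 over 14932 other heterodimers. All 47 intended pairs with a change of 3 or more in replicate 1 were above 0 in replicate 2, and so were all 41 the other way round. Of 424 other heterodimers at 3 or more in replicate 1, 306 were above 0 in replicate 2 and 70 were below -2 there. Of 385 at 3 or more in replicate 2, 301 were above 0 and 67 below -2 in replicate 1. Pairs share proteins and libraries, so these points are not independent.

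**Figure D2:**
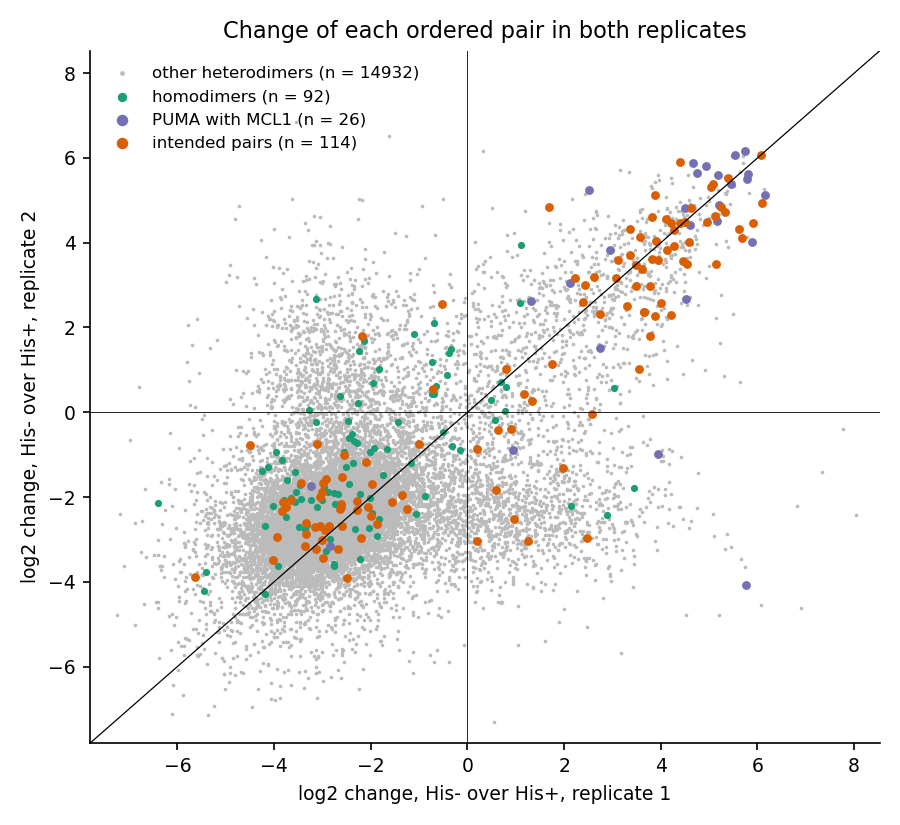
Log2 change of each tested pair, His- over His+, in replicate 1 (horizontal axis) and replicate 2 (vertical axis), with the line of equal values. Intended pairs (114 points) and PUMA pairs with MCL1 (26) correlated between replicates with r = 0.903 and 0.637. Other heterodimers (14932) also fill the corners where a pair was above 0 in 1 replicate only. Some intended and PUMA pairs lie there too, such as BN3 with AN4 (2.48 and -2.96) and MCL1 with PUMA_M144A_E158A (5.76 and -4.07).

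The numbered peptides gave the most uniform result: every intended pair of the P, N and PA series rose, against 3.38% of all tested pairs. These are short peptides named Jerala_P1 to Jerala_P12, N1, N2 and N5 to N8, and P5A to P8A. The fitted median was 3.71 over 12 of 12 P pairs, 4.15 over 6 of 6 N pairs and 4.97 over 4 of 4 PA pairs. With TMM factors 8, 2 and 4 of these pairs passed the threshold, with medians of 6.05, 6.45 and 7.37. Within the same series, other pairs had medians of -2.6 (P, 1 of 120 rose), 0.55 (N, 4 of 24) and -1.7 (PA, 0 of 8). With TMM factors these medians were -0.25, 2.77 and 0.75, so that of PA changed sign, and none of these other pairs passed the threshold. The N pairs, intended and other, include those of N1, which as row protein was high with most partners.

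Jerala_P10 with Jerala_P9 had the largest intended change. It had 5730 and 4570 RPM (its reads scaled to 1000000 reads of the library) in His- cells, against 85.4 and 67.6 in His+ cells. Both His- values lie far above both His+ values, and its share rose 67.3-fold (log2 6.07 ± 0.31 SE, n = 2 per group, edgeR adjusted p = 0.0109). Jerala_P4 with Jerala_P3 had 7780 and 8640 RPM in His- cells and 185 and 189 in His+ cells, a 44.0-fold rise (log2 5.46 ± 0.19, adjusted p = 0.0109 by edgeR). Lowest in the series was Jerala_P12 with Jerala_P11, at 1110 and 585 RPM in His- cells against 112 and 102 in His+ cells (log2 2.98 ± 0.60, edgeR adjusted p = 0.0164). Jerala_P7 with Jerala_P8 had nearly the same change (3.08 ± 0.63).

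Among the N peptides, N1 with N2 had 385 and 1440 RPM in His- cells and 18.2 and 23.9 in His+ cells (log2 5.43 ± 0.96, edgeR adjusted p = 0.0134). N1 as row protein was high with most partners (medians of 2.94 and 2.81, described below). N2 ranked 10 and 1 among its 127 partners in replicates 1 and 2. The reverse, N2 with N1, had 446 and 565 RPM in His- cells against 72.4 and 62.2 in His+ cells (2.91 ± 0.65, edgeR adjusted p = 0.0206). N7 with N8 rose by 4.60 ± 0.58 and N5 with N6 by 4.44 ± 0.48, and N8 with N7 by 3.08 ± 0.87 with unequal replicates (3.77 and 1.81). In the PA series, P6A with P5A had 3280 and 2230 RPM in His- cells and 85.9 and 77.2 in His+ cells, a 33.7-fold rise. The other PA orientations were close to it, from 4.71 ± 0.44 for P5A with P6A to 5.04 ± 0.49 for P8A with P7A, so that the 4 values lie within 0.4 of each other on the log2 scale.

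Partner numbers also met across series. P, N and PA share the numbers 5 to 8, P and N also 1 and 2, and a pair such as P5A with N6 holds an odd number of one series and its even partner number of another. Of 28 such pairs 20 rose (71.4%, against 3.38% of all tested pairs), with a fitted median of 4.13; with TMM factors 17 did. All 12 pairs of numbers 5 and 6 rose (median 4.65, lowest 3.63), as did 8 of 12 of numbers 7 and 8 (median 3.65), and 0 of 4 of numbers 1 and 2 (median -2.03). The highest was P5A with N6, with 1330 and 1920 RPM in His- cells against 56.0 and 39.6 in His+ cells (5.08 ± 0.51), followed by P6A with Jerala_P5 (5.04 ± 0.33) and P7A with Jerala_P8 (5.01 ± 0.36). Pairs of the same number in different series, such as P6A with N6, rose in 1 of 28 (median -1.61, and 0.74 with TMM factors). That 1 was N1 with Jerala_P1, and N1 was high with most partners. P6A with N6 itself was at 3.28 in replicate 1 and -2.58 in replicate 2. The list of cross-series pairs was made from names after earlier results of these data were known.

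The AN and BN peptides behaved unequally. Of their 18 intended pairs 4 rose (22.2%, against 3.38% of all tested pairs), 5 fell (27.8%, against 58.9%) and 9 did neither, and the fitted median was -0.03, or 2.35 with TMM factors, with which 3 rose. All 4 that rose hold AN4. BN4 with AN4 had 2110 and 2550 RPM in His- cells and 113 and 116 in His+ cells (log2 4.35 ± 0.35, edgeR adjusted p = 0.0109). AN4 with BN4 was close to it at 4.28 ± 0.33, BN35 with AN4 was at 3.79 ± 0.42 and AN4 with BN35 at 2.55 ± 0.40. No intended pair of AN3 rose: BN3 with AN3 had 13.7 and 19.9 RPM in His- cells against 225 and 222 in His+ cells (-3.73 ± 0.72, edgeR adjusted p = 0.0152, and adjusted p = 0.239 with TMM factors). AN3 with BN35 fell by 3.27 ± 0.72. BN3 with AN4 had replicates on opposite sides of 0 (2.48 and -2.96), as did AN4 with BN3 (0.90 and -0.39).

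The mALb (T) designs are larger 2-chain proteins. Of their 21 tested intended pairs 12 rose (57.1%, against 3.38% of all tested pairs). Their fitted median was 2.72, and 5.07 with TMM factors, with which 4 rose. Their values differed by parent design and, for some, within it. Both orientations of IL19, IL9 and BW5 rose, and neither of BW3, BW8 or BW10 did. IL14 and IL8 rose in 1 of 2 orientations, with fitted changes of 4.83 and 2.31 for IL14 and of 3.72 and 1.45 for IL8. The lower IL14 value, of IL14_B with IL14_A, rests in replicate 2 on 35 reads in His- cells and 29 in His+ cells. Of 5 pairs of mALb8 and its cut forms 4 rose, over a range from -2.86 to 5.67. mALb8_cutT1_A with mALb8_cutT1_B had 1690 and 658 RPM in His- cells and 24.7 and 21.6 in His+ cells (log2 5.67 ± 0.75, edgeR adjusted p = 0.0109). IL19_B with IL19_A had 961 and 1650 RPM in His- cells against 28.4 and 39.5 in His+ cells (5.26 ± 0.59). At the other end, BW10_B with BW10_A had 0.303 and 1.57 RPM in His- cells and 18.2 and 24.0 in His+ cells (-4.47 ± 0.93), resting on 5 and 28 reads after selection. BW8_B with BW8_A was at -3.20 ± 0.41, and the cut form mALb8_cutT2_B with mALb8_cutT2_A at -2.86 ± 0.43. With TMM factors none of these 3 falls passed the threshold.

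Of the 53 tested mALb (R) pairs 14 rose (26.4%, against 3.38% of all tested pairs). Another 25 fell (47.2%, against 58.9%) and 14 did neither. The median of the 53 was -1.61, and 0.73 with TMM factors, with which 6 rose. Of the 14 that rose, 11 hold forms of mALb8, where 11 of 16 pairs rose. The other 3 were 1026_BW5_2Hx2 in both orientations (3.99 ± 0.45 and 3.50 ± 0.73) and 1014_IL9_2Hx2_B with 1014_IL9_2Hx2_A (3.24 ± 0.72). The highest was 1008_mALb8x12j_rprtc_B with 1008_mALb8x12j_rprtc_A, at 1370 and 1580 RPM in His- cells and 59.9 and 70.1 in His+ cells (log2 4.51 ± 0.44, edgeR adjusted p = 0.0109). 1002_mALb8x1_rprtc_A with 1002_mALb8x1_rprtc_B followed at 4.26 ± 0.49 and 1001_mALb8x1_fdrtc_B with 1001_mALb8x1_fdrtc_A at 4.10 ± 0.40. None of the 6 tested IL14 pairs of the R series rose and all 6 fell, and of 4 IL8 pairs 3 fell, with 1009_IL8_2H_A with 1009_IL8_2H_B lowest at -3.28 ± 0.68 (3.22 and 9.50 RPM in His- cells against 50.3 and 73.3 in His+ cells). The median of the IL14 pairs, -2.33, was close to that of all tested pairs, -2.28. The IL8 pairs had a median of -2.77 and ranged from -3.28 to -1.61.

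**Figure D3:**
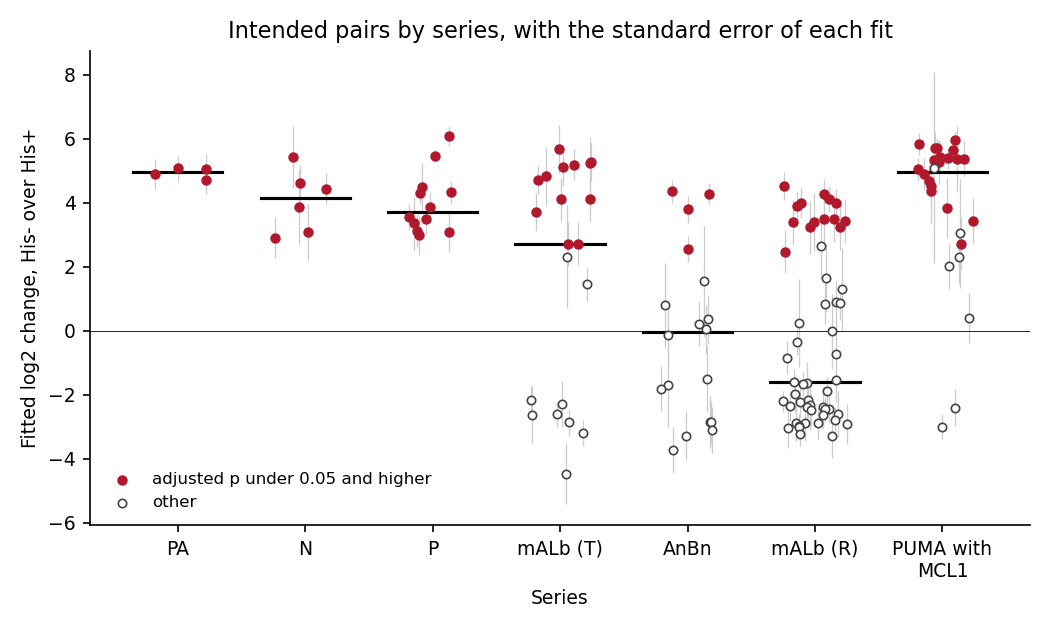
Fitted log2 change (vertical axis, His- over His+) of the intended pairs of each series and of PUMA variants with MCL1, with the standard error of each fit as a grey line and the series median as a black bar. Filled points rose at an edgeR adjusted p under 0.05: all pairs of PA, N and P, and 12 of 21, 4 of 18 and 14 of 53 pairs of mALb (T), AnBn and mALb (R).

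Chains from different forms of 1 parent design were often enriched together when they were opposite chains. Of 336 such pairs 93 rose (27.7%, against 3.38% of all tested pairs), with a fitted median of 0.03; with TMM factors 24 rose and the median was 2.32. Of 337 pairs of the same chain from different forms, 5 rose (1.48%, median -1.81, and 0.52 with TMM factors). Of the 93, 73 hold forms of mALb8, out of 210 tested, and 10 of 40 BW5 pairs rose, 4 of 37 IL9 pairs, 2 of 24 IL14 pairs, 2 of 12 IL8 pairs and 2 of 4 BW3 pairs. Of 7 BW8 and 2 BW1 pairs 0 rose. mALb8_cutT1_A with mALb8_B had 2740 and 1580 RPM in His- cells and 38.6 and 40.8 in His+ cells (5.76 ± 0.50). mALb8_cutT1_B with 1002_mALb8x1_rprtc_A was at 5.45 ± 1.31 with unequal replicates (5.79 and 4.14). Several mALb8 B chains were high with many partners, as described below, and the part of this in the count was not tested.

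PUMA variants rose with MCL1 in 19 of 26 ordered pairs (73.1%, against 3.38% of all tested pairs). All 13 variants carry M144A, named by amino acid and position in the protein, and all but 1 carry further substitutions. With MCL1 as column protein 11 of 13 rose, with medians of 5.21 and 5.60 in replicates 1 and 2, and with MCL1 as row protein 8 of 13 rose, with medians of 3.94 and 3.06. With TMM factors 10 and 4 of them passed the threshold. PUMA_M144A_A139G with MCL1 had 6040 and 8060 RPM in His- cells and 112 and 113 in His+ cells, a 62.7-fold rise (log2 5.97 ± 0.26, edgeR adjusted p = 0.0109).

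PUMA_M144A_L141A with MCL1 fell in both orientations, by 2.40 ± 0.57 and, with MCL1 as row protein, by 2.99 ± 0.40. The fitted median of all tested pairs was -2.28. With TMM factors neither fall passed the threshold. PUMA_M144A_L148A with MCL1 was at 2.01 ± 0.69 and in the reverse at 0.39 ± 0.78, neither past the threshold. Values differed in a smaller pool of the series, NICP and mALB T, with 1 library per state. There PUMA_M144A_L141A with MCL1 was at 0.94 and its reverse at -1.63, and PUMA_M144A_L148A with MCL1 was at 4.54 and its reverse at 0.63. MCL1 with PUMA_M144A_E158A was at 5.76 in replicate 1 and -4.07 in replicate 2, where it had 4 reads in His- cells against 67 in His+ cells, whereas PUMA_M144A_E158A with MCL1 rose by 5.70 ± 0.28. MCL1 with PUMA_M144A_W133F also had replicates on opposite sides of 0 (3.94 and -0.99).

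A second construct of the protein, Mcl1[151-321], was in the pool and gave no call with PUMA upward. Of its 26 ordered pairs with PUMA variants 8 had enough reads to be tested. Of these 8, 0 rose (against 3.38% of all tested pairs) and 2 fell (against 58.9%). None was above 0 in both replicates. With 8 pairs and a general share of 3.38%, a count of 0 does not set this construct apart from all tested pairs. PUMA_M144A_A139G with Mcl1[151-321] had 2 and 6653 reads in His- cells against 47 and 46 in His+ cells. PUMA_M144A_Y152A with Mcl1[151-321] had 2154 and 9 reads in His- cells and 54 and 100 in His+ cells. PUMA_M144A_A139G_A150G with Mcl1[151-321] had 1262 and 15 reads in His- cells and 96 and 79 in His+ cells. With PUMA_M144A_E132A as row protein the reads were 0 and 382 in His- cells and 35 and 54 in His+ cells. In each of these pairs 1 His- library was far above the His+ libraries and the other below them, and the pairs were picked after their values were seen.

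N1 as row protein was high with nearly all its partners. Over 127 column proteins its median change was 2.94 and 2.81 in replicates 1 and 2. Of these pairs 117 were above 0 in both replicates and 94 rose (74.0%, against 3.38% of all tested pairs). As column protein the same peptide had medians of -2.60 and -2.55 over 122 row proteins, and 1 pair rose. With TMM factors the median of N1 as row protein was 5.33 and 3 of its pairs passed the threshold. Of the 513 pairs that rose, 410 remained when all pairs with N1 were left out and the fit was repeated, an alternative chosen after the data were seen.

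No other protein had a median above 0.68 on either axis. The next row proteins were B chains of mALb8 forms: 1005_mALb8x12_fdrtc_B had medians of 0.68 and 0.41, 1007_mALb8x12j_fdrtc_B of 0.33 and 0.12, and 1008_mALb8x12j_rprtc_B of -0.40 and -0.46. AN4 came next with -0.76 and -0.73. As column protein the highest was 1008_mALb8x12j_rprtc_B, at -0.20 and -0.40, ahead of IL14_A (-1.19 and -1.21), BW5_A (-1.27 and -1.23), 1027_BW5_2Hx12j_A (-1.21 and -1.28) and 1004_mALb8x2_rprtc_B (-1.36 and -1.19). The last 4 lie within 0.2 of each other and cannot be ordered. Row medians ranged from -3.87 to 2.94 in replicate 1 over 121 proteins with at least 50 tested partners and correlated with r = 0.966 between replicates; column medians ranged from -4.10 to -0.20 over 125 and correlated with 0.891. A protein's row median and column median correlated with r = 0.268 over 118 proteins.

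**Figure D4:**
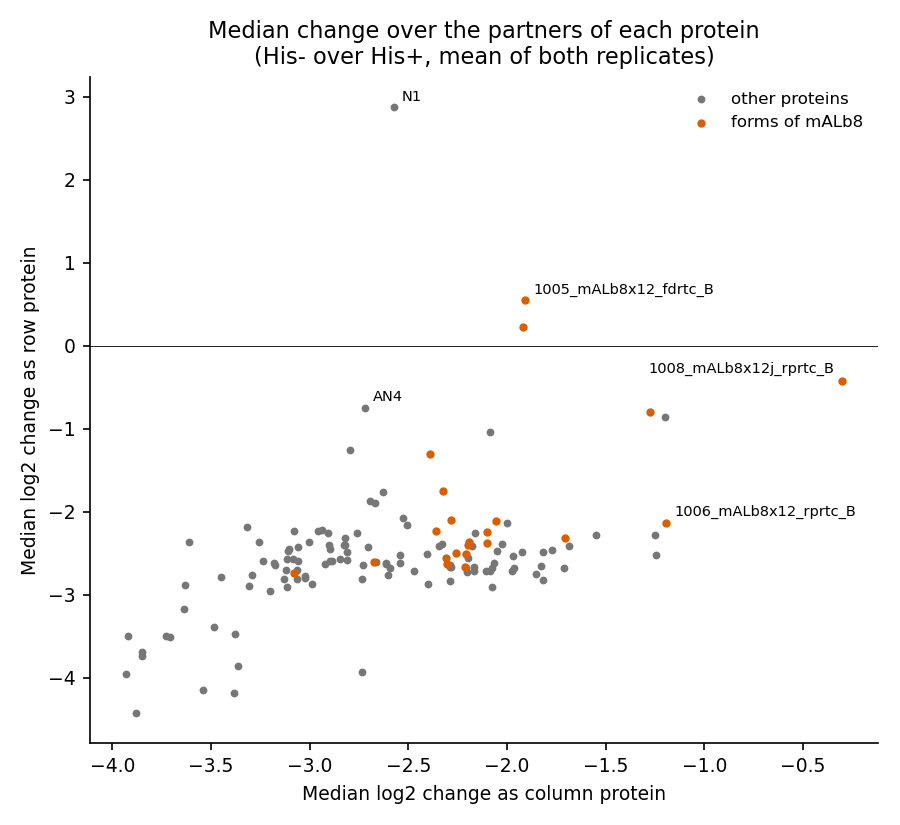
Median log2 change of each protein over its partners as row protein (vertical axis) and as column protein (horizontal axis), mean of both replicates, with forms of mALb8 in orange. N1 stands alone at the top, with medians of 2.94 and 2.81 as row protein and -2.60 and -2.55 as column protein, and 1008_mALb8x12j_rprtc_B is farthest to the right.

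The pairs that rose outside the intended design were spread unevenly over proteins. Of 14932 other heterodimers 442 rose (2.96%), and 259 did with the library set as a block. Of the 137 proteins, 116 occur in at least 1 of the 442. N1 was in 93, 1008_mALb8x12j_rprtc_B in 41, 1004_mALb8x2_rprtc_B in 36 and 1006_mALb8x12_rprtc_B in 28. A form of mALb8 was in 269 of the 442 (60.9%), against 4788 of the 14932 tested (32.1%); 22 of the 137 proteins are such forms. To set a pair against both of its proteins, the median of its row protein and that of its column protein were subtracted and the overall median added back. By this measure 643 of the 14932 stood more than 2 above their proteins in both replicates (4.31%), and 331 of the 442 that rose did, as a description, since both rest on the same values. N1 as row protein had 1 such pair of 127. Among intended pairs 55 of 114 did so (48.2%), and among PUMA pairs with MCL1 21 of 26 (80.8%).

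The highest of the other heterodimers that rose and were above 0 in both replicates was N2 with mALb8_cutT1_B, at 1950 and 2530 RPM in His- cells and 37.2 and 38.3 in His+ cells (log2 5.89 ± 0.40, edgeR adjusted p = 0.0109). It was high in the reverse orientation too, 5.66 ± 0.66 for mALb8_cutT1_B with N2. mALb8_cutT1_B with 1027_BW5_2Hx12j_A had 2970 and 2570 RPM in His- cells against 56.8 and 44.0 in His+ cells (5.78 ± 0.37). Jerala_P10 with BW5_A rose by 5.43 ± 0.31 and mALb8_B with BW3_B by 5.57 ± 0.57, both across parent designs. BN35 with 1006_mALb8x12_rprtc_B rose by 5.77 ± 0.82 from 128 and 62 reads in His+ cells.

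A designed partner was the highest partner of its protein in a minority of pairs, each ranked among 105 to 132 tested proteins. The ranked pairs include ones that did not rise, such as those of BW8 and BW10. The competing partners include other forms of the same parent design and partner numbers of other series. For 96 intended pairs outside the AN and BN peptides, the partner had rank 1 among all tested column proteins of its row protein in both replicates in 11 pairs, and among all row proteins of its column protein in 15. It was among the highest 5 in both replicates in 35 and 36 pairs. In 8 pairs it held rank 1 on both sides in both replicates: Jerala_P1 with Jerala_P2, Jerala_P3 with Jerala_P4 and Jerala_P9 with Jerala_P10 together with 2 of their reverses, IL19 in both orientations, and IL9_B with IL9_A. All 12 P pairs and all 4 PA pairs were among the highest 5 from the column protein's side. Of 53 mALb (R) pairs 8 and 6 were, from the row and the column side.

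The orientations of intended pairs correlated, while their median difference was near that of other pairs. Their changes correlated with r = 0.892 over 56 unordered intended pairs, against 0.333 over 6930 other unordered pairs, and the median absolute difference was 0.89 and 1.01. Of 27 intended pairs in which either orientation rose, both rose in 24, against 75 of 361 other pairs. The test of orientation against selection over 6999 unordered pairs called 0 differences at an adjusted p under 0.05 in edgeR (931 at an unadjusted p under 0.05; 0 with TMM factors). Without the His- library of replicate 1 or 2 it called 3539 or 3716. The largest differences by the lower replicate are therefore given as values. mALb8_cutT1_B with 1027_BW5_2Hx12j_A was at 5.71 and 5.87 and its reverse at -4.15 and -3.06. Among intended pairs, IL14_A with IL14_B was at 5.69 and 4.12 against 2.58 and -0.04 for its reverse. That reverse had 29 reads in His+ cells and 35 in His- cells of replicate 2. In the NICP and mALB T pool the IL14 orientations were at 5.01 and, for the reverse, 4.60. 1007_mALb8x12j_fdrtc_B with 1007_mALb8x12j_fdrtc_A was at 0.79 and 1.01 against -3.84 and -2.32 for its reverse. The mALB R pool gave -0.96 and, for that reverse, -2.41.

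Homodimers gave few tested pairs. Of 92 tested (of 137 possible) 0 rose, against 3.38% of all tested pairs, and 35 fell (38.0%, against 58.9%), with medians of -2.35 and -1.40 in replicates 1 and 2; with TMM factors 1 rose. Homodimers were already scarce before selection, with a median over all 137 of 16 and 18 reads in His- cells and 105 and 24 in His+ cells, against 115 and 163 in His- cells and 1052 and 700 in His+ cells for all ordered pairs. N1 with N1 was highest at 3.14 ± 1.04 (1.11 and 3.95 in replicates 1 and 2, edgeR adjusted p = 0.0565). N5 with N5 (3.45 and -1.78) and BN35 with BN35 (-3.13 and 2.68) had replicates on opposite sides of 0.

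Many of the same pairs were also measured in smaller pools of the series, each from its own library set, where the change was computed in the same way. The NICP and mALB T pool, the AnBn, NICP, N and PA pool and the mALB R pool have 1 library per state, so they give values without a test. The NCIP pool was selected at 2 mM 3-AT and has 2 replicates, whose mean log2 change is given. Proteins were matched by barcode, which identified every protein of the 4 pools. All 38, 38 and 12 proteins of the first, second and NCIP pools are in the combined pool's tables, and 69 of 86 of the mALB R pool. The change in the NICP and mALB T pool correlated with that in replicates 1 and 2 of the combined pool with r = 0.529 and 0.536 over 1387 shared pairs, where the replicates correlated with each other with 0.507. For the AnBn, NICP, N and PA pool the values were 0.637 and 0.652, against 0.547 between replicates, over 1414 pairs. They were 0.567 and 0.563, against 0.533, over 4328 pairs for the mALB R pool. For the NCIP pool they were 0.677 and 0.685, against 0.743, over 138 pairs. Shared proteins link these points.

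Pairs that rose in the combined pool were mostly above 0 in the other pools: 38 of 40 in the NICP and mALB T pool, 87 of 91 in the AnBn, NICP, N and PA pool, 164 of 176 in the mALB R pool and 10 of 13 in the NCIP pool. Over all shared pairs the shares above 0 there were 8.29%, 9.69%, 11.1% and 7.97%. Jerala_P10 with Jerala_P9, at 6.07 and 6.08 in the combined pool, was at 5.46 with NICP and mALB T, 5.01 with mALB R and 4.91 in the NCIP pool. N1 as row protein was high in the AnBn, NICP, N and PA pool as well, with a median of 4.34 over 38 shared partners, where the combined pool gave 3.20 and 3.14; as column protein it was at -2.94 there. Row medians of 38 proteins correlated with r = 0.945 between that pool and the combined one.

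Some pairs differed widely between pools. Jerala_P2 with 1008_mALb8x12j_rprtc_B was at 4.17 and 4.44 in the combined pool and at -3.46 in the mALB R pool. Jerala_P4 with Jerala_P3 was at 5.39 and 5.52 in the combined pool and at -2.23 in the mALB R pool, while it was at 5.35 in the AnBn, NICP, N and PA pool, 4.88 in the NICP and mALB T pool and 5.52 in the NCIP pool. Jerala_P6 with Jerala_P5 was at 3.37 and 3.72 in the combined pool and -2.50 in the NCIP pool. It was at -0.28 in the AnBn, NICP, N and PA pool and at 3.16 in the NICP and mALB T pool. Jerala_P7 with Jerala_P8, at 3.66 and 2.36 in the combined pool, was at -1.77 in the NCIP pool. The other 2 pools that held it gave 3.72 (AnBn, NICP, N and PA) and 4.81 (NICP and mALB T). In the NCIP pool 10 of 12 intended pairs were above 0. In the AnBn, NICP, N and PA pool the largest difference was BN4 with PUMA_M144A_W133F, at 2.04 and 3.10 in the combined pool against -4.09. For Jerala_P5 with Jerala_P10, at 3.01 and 1.06 in the combined pool, 2 pools gave -4.50 and -5.87.

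**Figure D5:**
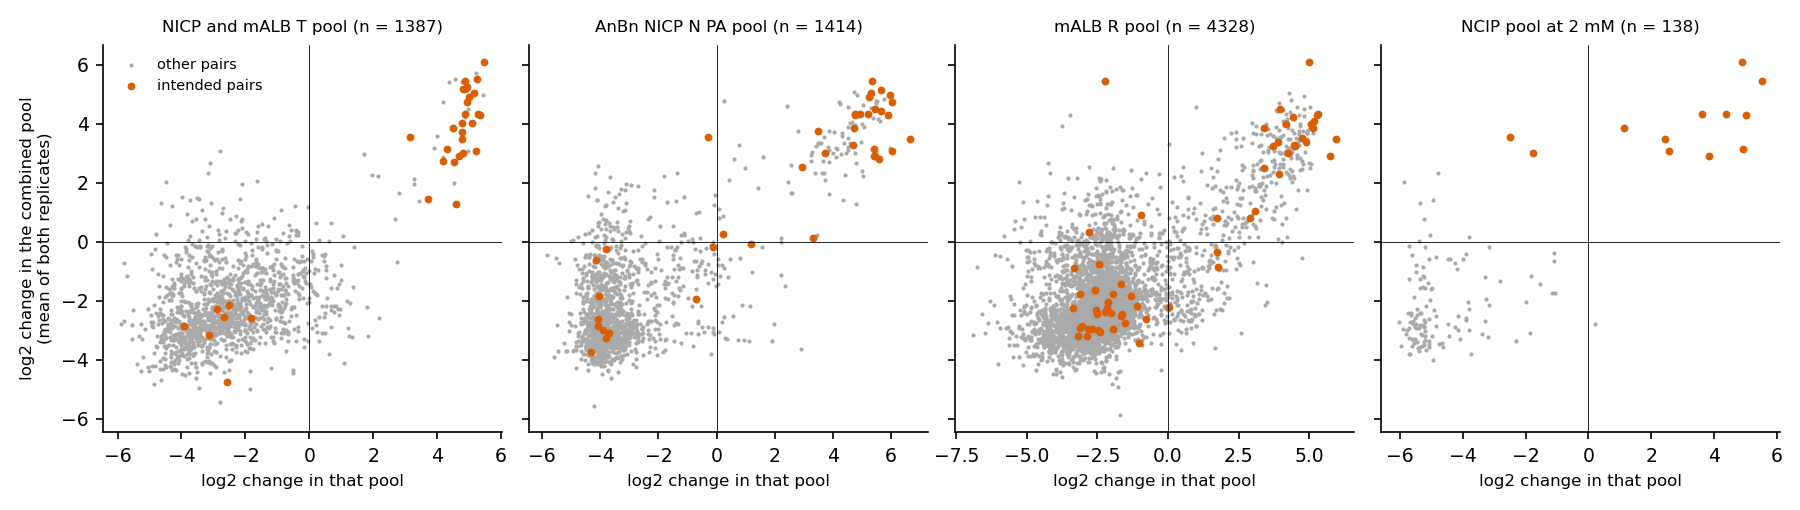
Log2 change of shared pairs in the combined pool (vertical axis, mean of both replicates) and in 4 other pools (horizontal axis, 1 panel each), with intended pairs in orange. Most pairs high in the combined pool are also high in the other pool, and the intended pair at the upper left of the mALB R panel is Jerala_P4 with Jerala_P3, at -2.23 in that pool.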

How the data were processed

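The deposited tables hold the authors' read counts per ordered protein pair. Per the submitters' processing notes DESeq2 was used before deposit, while read matching, filters and versions are not given in the sources used here. Blank cells were read as 0. Technical runs were summed to 2 biological replicates per state (16479810 and 17791146 reads in His-, 22515090 and 14428752 in His+). Pairs with at least 10 reads in each His+ replicate were tested with edgeR 4.0.16 under R 4.3.3 (robust glmQLFit and two-sided glmQLFTest, Benjamini-Hochberg adjusted p under 0.05), with library totals as library sizes and no covariate. The SE of a fitted change is its size over the root of the test's F value. Changes per replicate used a pseudocount of 1 read. The common dispersion was 0.347.

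On data simulated for the His- over His+ comparison with 15164 pairs and 200 changed ones, the fit recovered 0%, 63.5% and 99% of log2 changes of 2, 4 and 6. The other simulated pairs were unchanged, whereas in the data the fitted median was -2.28 and 8932 pairs fell. These shares therefore do not give the recovery in the data. The labels give libraries of equal replicate number 1 library set, which pairs them. Deviations from group means correlated with r = 0.177, and the replicate block was an alternative. Other alternatives were TMM factors, DESeq2 1.42.0, read filters, pseudocounts, single technical runs, centring, left-out libraries and, chosen after the data were seen, N1 left out and the missing runs of 1028_BW8_2Hx1_B counted as 0.

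The members and lists were chosen with earlier results of these data known. The rule for named pairs took the 10 highest intended and 10 highest other pairs that rose and were above 0 in both replicates, the 3 highest and 2 lowest intended pairs per series, the 5 highest homodimers, the 5 row and 5 column proteins with the highest median, the 5 pairs per other pool with the largest difference (at least 50 reads before selection in both), and the 5 pairs under the read filter with most His- reads. Pairs named beside these were chosen after their values were seen.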

Additional observations from a re-analysis of the deposited data

Results flagged for a closer look

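N1 with 1006_mALb8x12_rprtc_B lay under the read filter, with 30 and 8 reads in the His+ libraries, and so was not tested. It nevertheless had 151 and 337 reads in the His- libraries, which is 9.16 and 18.9 RPM in His- cells against 1.33 and 0.554 in His+ cells. It was the only one of 3332 pairs under the filter with at least 100 reads in each His- library. N1 was high as row protein with most tested partners too.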

How the results depend on the processing

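With TMM factors 156 pairs rose, 0 fell and 27 intended pairs rose; with DESeq2 there were 1989 that rose, among them all 513, and 372 that fell. With the replicate block, which follows the pairing by library set, 320 pairs rose. The block moved the counts of pairs that fell and of intended pairs by less than 1.5 times. It lost the call of 3 of 56 named pairs and put BN35 with BN35 at -0.22. TMM factors lost the call of 17 of the 56. Among those were mALb8_cutT1_A with mALb8_cutT1_B (adjusted p = 0.0563, edgeR with TMM factors), N1 with N2 (0.0657), N2 with N1 (0.0871) and Jerala_P12 with Jerala_P11 (0.0878). Leaving out 1 library gave 0 to 1652 pairs that rose, 0 to 12350 that fell, 0 to 65 intended pairs that rose and 0 to 3716 orientation differences, with 0 without either His+ library, when the spread rests on the 2 His- libraries alone. Without a His- library, N5 with N5 ranged from -1.94 to 3.59 and BN35 with BN35 from -3.22 to 2.76. The median change of intended pairs over the mean of both replicates, 0.85, was 0.78 to 1.51 in single replicates and 3.30 after centring on the median pair. That of other heterodimers, -2.38, was -2.62 to -2.29 in single replicates and 0.06 after centring, which sets the median pair to 0. The median absolute orientation difference of intended pairs was 0.95 to 1.10 in single replicates. The other filters, pseudocounts, technical runs and N1 left out kept these counts within 1.5 times. With 2 replicates per state the fit recovered no simulated log2 change of 2, although it called some smaller ones in the data, and 3332 pairs had too few reads before selection to be tested.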

Other observations

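Bcl-2 homologues, the construct Mcl1[151-321] and the inhibitors of the family, 16 proteins of the tables beside MCL1, were thinly measured. Of the 3332 pairs under the read filter 3003 hold one of them. Among 1093 tested other pairs with such a protein 4 rose (0.366%, against 3.38% of all tested pairs), and their fitted median was -3.56, or -1.25 with TMM factors.

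After N1 with 1006_mALb8x12_rprtc_B, the pairs under the filter with the most His- reads by the lower replicate were Bcl-xL with 1027_BW5_2Hx12j_B (39 and 31 reads in His- cells against 11 and 2 in His+ cells) and N1 with mALb8_cutT2_B (30 and 35 against 7 and 1). AN4 with alphaBCL2 had 32 and 23 reads in His- cells and 72 and 7 in His+ cells, and the homodimer of BW3_B had 27 and 16 in His- cells and 90 and 8 in His+ cells.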
